A study of Mus musculus with 4 samples.

Results

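Genes that drive or restrain the cell division cycle were followed in distal convoluted tubules of mice on a low or a high magnesium diet. The set held 37 listed genes, chosen by name: 10 of DNA replication, 9 of G1 and entry into S phase, 12 of G2 and mitosis, and 6 inhibitors and growth arrest genes. Probes named for 35 of them were found among 21713 named genes, with Cdk1 listed under its older alias on the array. Ccnb1, which encodes cyclin B1, and Trp53, which encodes p53, were not analysed here. The 35 measured genes had 49 probes, and each gene was represented by its brightest probe.

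The mice were PV-eGFP transgenic animals of the B6D2F2 background, in which the parvalbumin promoter drives a green fluorescent protein, and all animals of both diets carried it. For 15 days they ate a diet containing 0.02% (low) or 0.48% (high) magnesium by weight. Their age at isolation of the tubules was 6 to 8 weeks. Fluorescent kidney tubules were sorted, and RNA of 4000 tubules was pooled per sample. The reporter promoter limits the model, since the tubules were picked by the activity of a promoter whose own gene, Pvalb, had log2 ratios between 1.69 and 2.56 (low over high diet) in the 4 pairs. There were 8 samples on 4 two-colour arrays, each array holding 2 littermate samples, 1 per diet. The pairs are named by the sample numbers, low first: L1/H1 and L7/H7, with the low-diet sample in Cy5, and L2/H3 and L8/H8, with the high-diet sample in Cy5. How many mice gave 1 sample is not stated in the labels. The p-values therefore describe the spread between these 4 pairs, which may be in part technical.

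The cell cycle is driven by cyclin-dependent kinases, each switched on by a cyclin partner. D-type cyclins with Cdk4 and Cdk6 act in G1 and inactivate the retinoblastoma protein, which otherwise holds back E2F transcription factors. E2F factors then raise the genes of DNA replication, and later a second wave of genes, many with a CHR promoter element, serves G2 and mitosis. Kinase inhibitors of the Cip/Kip family and p53 targets oppose these steps. The distal convoluted tubule takes up filtered magnesium under control of the body's needs. Its cells divide rarely in the healthy adult kidney, and their number is known to change with salt load and diuretics in rodents.

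Promoters of 6 genes are shown first, since the roles above differ in these motifs. They are Mcm7, which passed the test below, and Cdk1, Birc5 and Ccnb2, which varied between pairs. The others are Mki67, which encodes a proliferation marker, and Mcm6, the replication gene with the most E2F cores. Rb1, which also passed, is not in the promoter table used. The sequences are RefSeq's for build GRCm38.p6 and cover the 180 bases before the annotated start, 5′ to 3′ on the gene's strand. Capitals mark E2F cores (TTTGGCGC, TTTCCCGC, TTTCGCGC or TTTGCCGC) and CHR elements (TTTGAA or TTCGAA) found on either strand, and motifs that overlap run together. The positions are chr5:138171884-138172063 on the minus strand for the first of 2 starts of Mcm7, chr1:128359706-128359885 on the minus strand for Mcm6, chr10:69352913-69353092 on the minus strand for Cdk1, chr9:70421555-70421734 on the minus strand for Ccnb2, chr7:135716380-135716559 on the minus strand for Mki67 and chr11:117849057-117849236 on the plus strand for Birc5.
Mcm7: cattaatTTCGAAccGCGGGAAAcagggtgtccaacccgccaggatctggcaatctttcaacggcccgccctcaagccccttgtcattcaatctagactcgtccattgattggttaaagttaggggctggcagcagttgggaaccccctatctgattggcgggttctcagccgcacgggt
Mcm6: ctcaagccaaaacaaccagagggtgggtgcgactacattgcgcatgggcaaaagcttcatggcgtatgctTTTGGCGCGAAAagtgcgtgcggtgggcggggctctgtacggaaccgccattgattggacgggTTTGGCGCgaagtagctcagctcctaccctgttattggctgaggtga
Cdk1: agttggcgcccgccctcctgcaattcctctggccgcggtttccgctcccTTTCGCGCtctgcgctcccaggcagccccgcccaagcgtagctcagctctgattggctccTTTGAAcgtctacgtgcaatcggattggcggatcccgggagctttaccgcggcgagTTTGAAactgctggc
Ccnb2: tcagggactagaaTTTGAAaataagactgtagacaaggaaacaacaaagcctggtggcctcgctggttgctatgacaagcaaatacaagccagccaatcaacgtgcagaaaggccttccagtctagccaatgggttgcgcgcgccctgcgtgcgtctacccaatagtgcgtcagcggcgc
Mki67: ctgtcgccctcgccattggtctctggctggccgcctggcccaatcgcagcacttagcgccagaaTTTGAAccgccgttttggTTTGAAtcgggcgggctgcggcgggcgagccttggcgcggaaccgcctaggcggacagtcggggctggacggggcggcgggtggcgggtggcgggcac
Birc5: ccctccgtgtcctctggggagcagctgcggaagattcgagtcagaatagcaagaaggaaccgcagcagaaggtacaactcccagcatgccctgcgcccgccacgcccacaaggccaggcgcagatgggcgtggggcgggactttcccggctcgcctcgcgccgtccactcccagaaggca

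Of the 35 genes, 27 had a promoter of 300 bases in the RefSeq table, running 250 bases before the start and 50 after it. A CHR element stood in 8 of 9 promoters of the G2 and mitosis group (88.9%), against 21.7% of 27025 genes with a promoter there. An E2F core stood in 4 of 9 promoters of the replication group (44.4%), against 2.6% of all. Cdk1, the kinase that starts mitosis, held 1 E2F core and 2 CHR elements, the nearer CHR 15 bases before the start. Mcm6 held 3 E2F cores, of which 2 overlap on opposite strands. In the window of Mcm7 the CHR element lay 173 bases and the E2F core 165 bases before the start. A further E2F core of Mcm7 lay 17 bases after its start, and a further CHR element of Ccnb2 lay 5 bases after its start. Both are outside the bases shown. Birc5, which encodes survivin, held none of these letters in its 300 bases. The 6 G1 genes with a promoter held 1 E2F core in Cdk2 and no CHR element, and the 3 inhibitors with a promoter held neither.

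All ratios below are log2 values of low over high diet, and a value above 0 means more on the low diet. Between 65.5% and 97.4% of probes were above background in the low-diet samples and between 85.1% and 96.2% in the high-diet samples, with the Cy5 sample of every array having the larger share. A sample was called above background at a spot where its signal, less background, was over the 99th percentile of the spots of 1 dim control probe. By that rule 29 of the 35 genes were above background in all 8 samples. Cdk6, Ccne2, Cdk2, Top2a, Bub1 and Aurkb were so in fewer samples, Cdk6 and Aurkb in 2 of 4 samples of each diet, and no spot of the set was saturated. Markers of the segment were present but differed between the diets. The median ratio of 6 distal convoluted tubule genes was 1.23, 0.99, 0.69 and 0.45 in L1/H1, L7/H7, L2/H3 and L8/H8, and that of 10 proximal tubule genes was -1.11, -0.17, -0.78 and -0.17. Of the distal genes Pvalb, Trpm6, Calb1 and Egf rose, while Slc12a3 and Klhl3, which encode the sodium-chloride cotransporter and a regulator of it, averaged 0.13 and -0.18 and did not pass. Of the proximal genes 2 of 10 passed, both lower. All 6 distal genes were above background in 8 samples, and so were 9 of the 10 proximal genes. In such samples fewer cells of a type and less RNA per cell cannot be told apart.

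Most of the cell cycle set did not differ beyond the spread between pairs. Rb1, which encodes the retinoblastoma protein, was the 1 gene that rose on the low diet, and Mcm7, a subunit of the replicative helicase, was the 1 gene that fell. These 2 of 35 genes passed limma's test at an adjusted p of 0.05, where 7.82% of all named genes did, 4.88% higher and 2.95% lower. The share in the set was thus no larger than the background. At an unadjusted p under 0.05 the set had 7 genes, 5 higher and 2 lower, against 26.7% of named genes (14.6% higher and 12.1% lower). The same sign in all 4 pairs was seen in 9 of 35 genes, 4 above 0 and 5 below, against 27.6% of named genes (15.4% above and 12.2% below). The median ratio was 0.02 over the set and 0.00165 over all named genes.

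**Figure D1:**
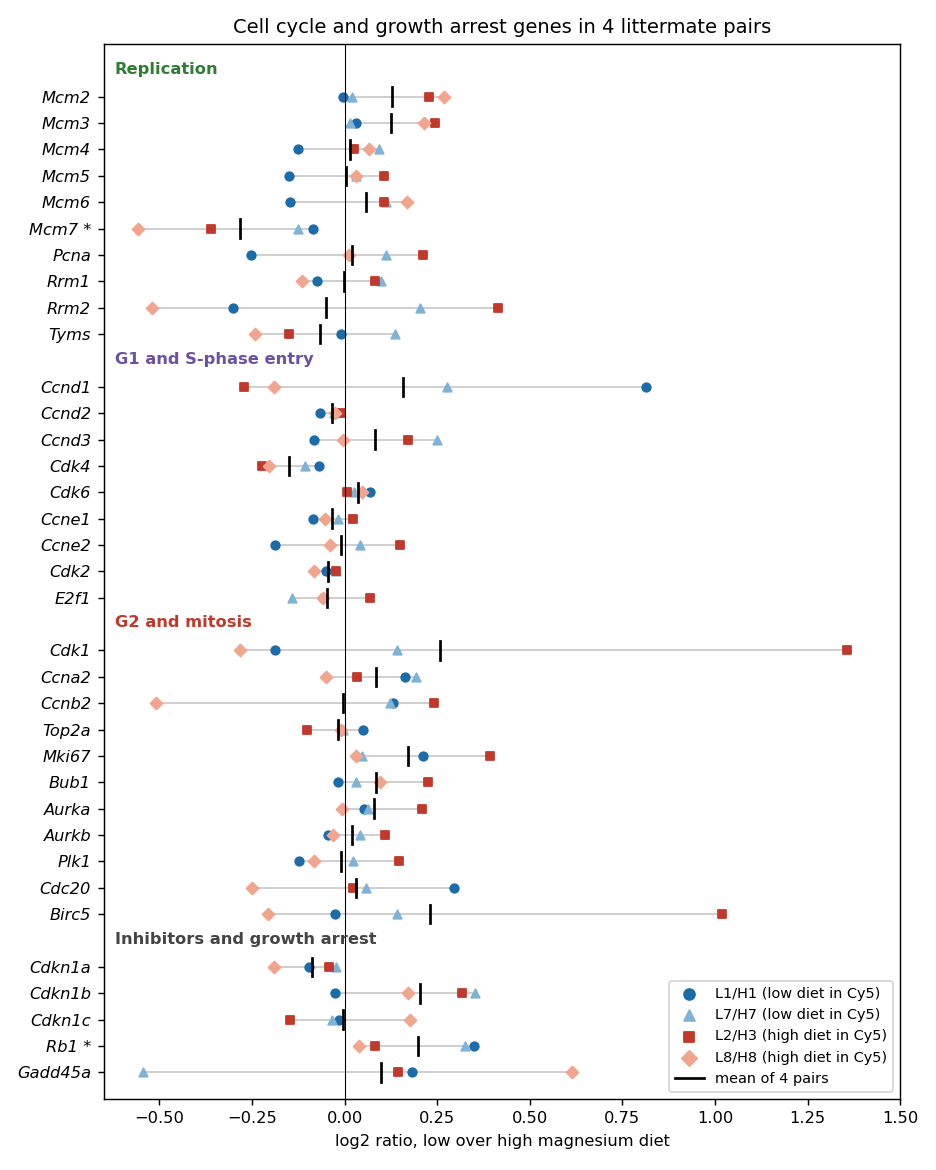
Log2 ratio of low over high magnesium diet (x axis) of each of the 35 genes in each littermate pair, grouped by role. Points are the 4 pairs, black bars their mean, and asterisks mark Mcm7 and Rb1, which passed the adjusted test. Most points lie near 0, while Cdk1 and Birc5 reach 1.36 and 1.02 in L2/H3 alone.

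The intervals of the ratios bound what these 4 pairs could have missed, but only for genes clear of the background. The 95% interval of limma's fit lay inside a 2-fold change either way for 35 of 35 genes, and inside 1.5-fold for all but Cdk1 and Birc5. It lay inside 1.2-fold for 25 genes. The 10 others were Mcm7, Rrm2, Ccnd1, Cdk1, Ccnb2, Mki67, Birc5, Cdkn1b, Rb1 and Gadd45a. These intervals hold for ratios after a background correction with an offset of 50, which pulls the ratios of dim probes towards 0. Cdk6, Ccne2, Cdk2, Top2a, Bub1 and Aurkb, not above background in every sample, are among the 25 genes. For these dim genes a narrow interval does not bound the change.

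Among the 10 replication genes, Mcm7 fell, and no other subunit of the same ring-shaped helicase passed the test. The Mcm7 level was 7.60, 7.72, 7.58 and 7.58 log2 units in the low-diet samples L1, L7, L2 and L8, against 7.69, 7.84, 7.94 and 8.14 in H1, H7, H3 and H8. Each low-diet sample was below its littermate, and the diets overlapped only in that L7 was above H1. The ratio was -0.28 ± 0.22 (SD, n = 4; 1.22-fold lower; limma adjusted p = 0.036). By pair it was -0.09, -0.12, -0.36 and -0.56 in L1/H1, L7/H7, L2/H3 and L8/H8, so the pairs with the high diet in Cy5 had the larger differences. Leaving out 1 pair at a time gave -0.33 to -0.23; the call held without L2/H3 (limma adjusted p = 0.049) and was lost without L1/H1, L7/H7 or L8/H8 (limma adjusted p of 0.120, 0.102 and 0.090). In the authors' deposited table Mcm7 had p = 0.905, 34 of the 35 genes had p = 1, Rb1 among them, and 0 were under 0.05. Most probes were alike in that table: 37011 had the value of those 34 genes and 287 were under 0.05. For scale, 39429 probes were tested here.

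Mcm2 and Mcm3, subunits of the same helicase, had ratios of the opposite sign that missed the threshold. Mcm2 had -0.01, 0.02, 0.23 and 0.27 in L1/H1, L7/H7, L2/H3 and L8/H8 (mean 0.13 ± 0.14; limma adjusted p = 0.075). Mcm3 had 0.03, 0.01, 0.24 and 0.21 (mean 0.13 ± 0.12; limma adjusted p = 0.074), and a dimmer Mcm3 probe averaged 0.07. For both genes the 2 pairs with the low diet in Cy5 were near 0 and the other 2 pairs were above it. Mcm4, Mcm5 and Mcm6 averaged 0.01, 0.00422 and 0.06, each below 0 in L1/H1 and above 0 in the other pairs. Signs were thus mixed among the 6 subunits of 1 complex.

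The other replication genes showed no direction held by all pairs. Pcna, the sliding clamp of DNA polymerases, had -0.25, 0.11, 0.21 and 0.01 in L1/H1, L7/H7, L2/H3 and L8/H8. Rrm1, the large subunit of ribonucleotide reductase, which makes the DNA precursors, averaged -0.00157 ± 0.11 (SD, n = 4). Rrm2, the small subunit that is made in S phase, had a larger SD of 0.43, with -0.30, 0.20, 0.41 and -0.52. Tyms, which makes thymidylate, had -0.01, 0.14, -0.15 and -0.24 by its brighter probe and averaged 0.04 by its dimmer one. Over the group the median ratio was -0.11, 0.10, 0.11 and 0.02 in L1/H1, L7/H7, L2/H3 and L8/H8.

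None of the 9 genes of G1 and S-phase entry passed the test by its brightest probe, and their median ratio was -0.03. Cdk4, the kinase partner of D-type cyclins, came closest and was lower in 4 of 4 pairs. Its level was 9.14, 9.07, 9.01 and 8.99 in L1, L7, L2 and L8, against 9.21, 9.18, 9.23 and 9.19 in H1, H7, H3 and H8. The low-diet samples all lay below the high-diet samples, with ratios of -0.07, -0.11, -0.22 and -0.20 (mean -0.15 ± 0.07; limma adjusted p = 0.052). Cdk4 had 3 dimmer probes, of which 1 passed at -0.18 (limma adjusted p = 0.046) and 2 averaged -0.04 and -0.03.

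Ccnd1, which encodes cyclin D1, had 0.81, 0.28, -0.27 and -0.19 in L1/H1, L7/H7, L2/H3 and L8/H8. Its sign followed the dye orientation: the low diet was higher in both pairs with it in Cy5 and lower in both others. No other gene of the 35 had 1 sign in both pairs of 1 orientation and the opposite sign in both others (1 of 35, 2.86%, against 22.7% of named genes). Ccnd1 was singled out after its values were seen, and its ratio averaged 0.16 ± 0.50 (limma adjusted p = 0.429). Ccnd2 stayed between -0.07 and -0.01, and Ccnd3 ranged from -0.08 to 0.25. Cdk6, Ccne1, Ccne2, Cdk2 and E2f1, the kinases, E-type cyclins and transcription factor of S-phase entry, had mean ratios between -0.05 and 0.04 by their brightest probes. The brightest Ccne1 probe averaged -0.03, but its dimmer probe averaged 0.09 and was above 0 in 4 of 4 pairs (limma adjusted p = 0.240).

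**Figure D2:**
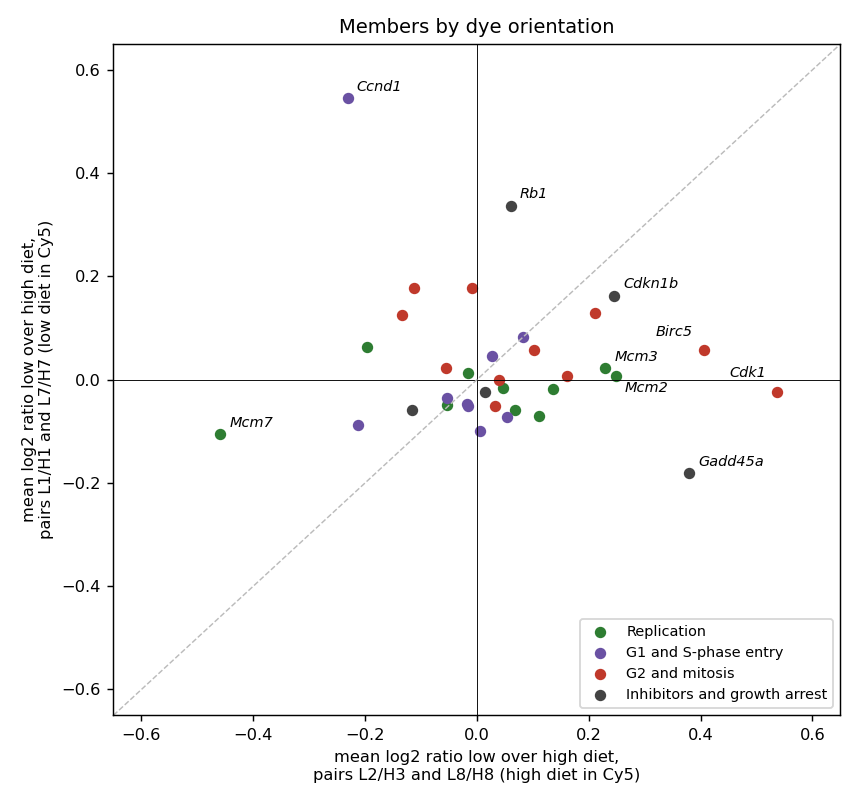
Mean log2 ratio of low over high diet in the pairs with the high diet in Cy5 (L2/H3 and L8/H8, x axis) against that in the pairs with the low diet in Cy5 (L1/H1 and L7/H7, y axis), 1 point per gene, coloured by role. The dashed line marks equal values. Ccnd1 has opposite signs at 0.55 on the y axis and -0.23 on the x axis, Rb1 and Mcm7 keep their sign, and Cdk1 and Birc5 lie far right near 0 on the y axis.

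None of the 11 measured genes of G2 and mitosis passed the test, and their median ratio was 0.08. With plain subtraction of the background that median was 0.29, and 0 of the genes passed. Mki67, which encodes the proliferation marker Ki-67, was above 0 in 4 of 4 pairs, with 0.21, 0.05, 0.39 and 0.03 in L1/H1, L7/H7, L2/H3 and L8/H8 (mean 0.17 ± 0.17; limma adjusted p = 0.263). Its second probe gave 0.12, 0.02, 0.44 and 0.01. Ccna2, which encodes cyclin A2, had 0.16, 0.19, 0.03 and -0.05 (mean 0.08 ± 0.11; limma adjusted p = 0.206). Bub1, a kinase of the spindle checkpoint, had -0.02, 0.03, 0.23 and 0.10 (mean 0.08 ± 0.11; limma adjusted p = 0.268).

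The widest spread of the set was that of Cdk1 and Birc5, and it came from 1 pair. The Cdk1 level was 7.49, 7.71, 8.32 and 7.59 in L1, L7, L2 and L8, against 7.68, 7.57, 6.97 and 7.87 in H1, H7, H3 and H8. L2 was the highest and H3 the lowest of the 8 samples, and the other 6 lay between them, so the ratios were -0.19, 0.14, 1.36 and -0.28. Birc5, whose product serves chromosome segregation and blocks cell death, was 7.29, 7.69, 7.99 and 7.62 in the low-diet samples, against 7.31, 7.55, 6.97 and 7.82 in the high-diet samples. L2 was again the highest and H3 the lowest, with ratios of -0.03, 0.14, 1.02 and -0.21. The SD over the 4 pairs was 0.75 for Cdk1 and 0.54 for Birc5, at the 99.5th and 98.9th percentile of named genes. Both genes are described here because of this spread, seen after their values were known, and neither passed the test (limma adjusted p of 0.685 and 0.611).

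The probes of these genes did not all show it, or not at that size. The second Cdk1 probe had 1.08 in L2/H3 and between -0.21 and 0.07 in the other pairs, while the third had 0.14 in both L2/H3 and L8/H8. The 2 dimmer Birc5 probes had 0.15 and 0.11 in L2/H3, the only pair where they were above 0. The dimmest of the Birc5 probes was above background in 3 of 4 low-diet samples. With plain subtraction of the background the brightest probes had 1.94 for Cdk1 and 1.54 for Birc5 in L2/H3.

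**Figure D3:**
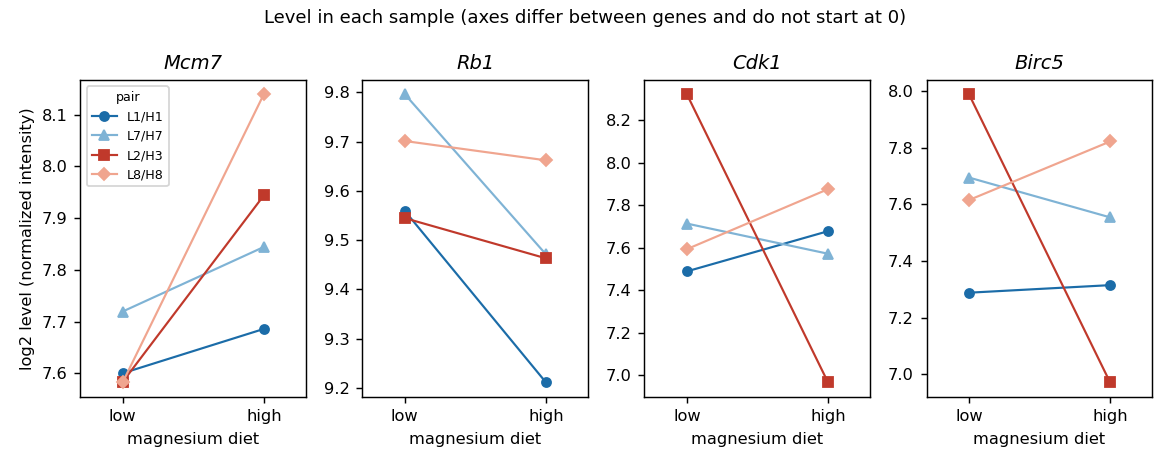
Log2 level (y axis, normalized intensity) of Mcm7, Rb1, Cdk1 and Birc5 in the low-diet and high-diet sample of each littermate pair, joined by a line. Axes differ between genes and do not start at 0. All 4 lines run upwards from low to high diet for Mcm7 and downwards for Rb1, while for Cdk1 and Birc5 only L2/H3 is steep.

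L2/H3 was the pair with the highest ratio in much of the set. This held for 16 of 35 genes (45.7%), with 4 of 10 replication genes (40%), 4 of 9 G1 genes (44.4%) and 0 of 5 inhibitors. In 8 of 11 mitosis genes (72.7%) L2/H3 had the highest ratio of the 4 pairs, against 25.3% of named genes, and in 7 of 11 (63.6%) L8/H8 had the lowest, against 30.8%. Both pairs were singled out after the values were seen, so these shares only describe them. Cdk1 and Birc5 are among the 8 genes, and so are Bub1 and Aurkb, which were not above background in every sample. The group's median was 0.05, 0.06, 0.21 and -0.05 in L1/H1, L7/H7, L2/H3 and L8/H8. L2/H3 and L8/H8 share the dye orientation. Without L2/H3 the group's median from the fit was -0.02. Among 36 other mitosis genes L2/H3 was highest in 15 (41.7%), with medians of 0.03, 0.03, 0.11 and -0.05. For examples picked after their values were seen, the ratio in L2/H3 was 0.71 for Ect2, which drives the contractile ring of cytokinesis, 0.58 for Cdca3, 0.57 for Incenp, which sits with survivin and Aurora B in 1 complex, and 0.46 for Prc1, which bundles spindle microtubules. Cdca3 and Prc1 had -0.29 and -0.32 in L8/H8. The 10 replication genes of the set had medians of -0.11, 0.10, 0.11 and 0.02, also highest in L2/H3. The 33 measured other replication genes had medians of -0.03, 0.01, 0.02 and -0.03.

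The remaining mitosis genes had smaller mean ratios than Cdk1 and Birc5, though Ccnb2 and Cdc20 varied between pairs (SD 0.34 and 0.22). Aurka, which encodes the Aurora A kinase of spindle poles, had 0.05, 0.06, 0.21 and -0.01 in L1/H1, L7/H7, L2/H3 and L8/H8. Ccnb2, which encodes cyclin B2, had 0.13, 0.12, 0.24 and -0.51, and Cdc20, the activator of the anaphase-promoting complex, had 0.30, 0.06, 0.02 and -0.25. Aurkb, Plk1 and Top2a, which encode the Aurora B kinase, Polo-like kinase 1 and topoisomerase II alpha, averaged 0.02, -0.01 and -0.02, and Aurkb and Top2a were dim.

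Marker genes of other cell types gave the following values in the pair that stood apart. In L2/H3 the median ratio was -0.17 for 7 endothelial genes, -0.12 for 6 stromal genes, -0.05 for 9 leukocyte genes and -0.78 for the 10 proximal tubule genes. It was -0.27 for 6 principal cell genes, -0.22 for 4 podocyte genes, -0.20 for 5 intercalated cell genes and 0.15 for 4 thick limb genes. In L8/H8 the medians, in the same order, were -0.03, -0.03, -0.01, -0.17, -0.03, 0.13, 0.26 and 0.46. In L1/H1 they were -0.15, 0.03, 0.03, -1.11, 0.12, -0.12, 0.04 and -0.22. In L7/H7 they were 0.00479, -0.00834, 0.00448, -0.17, -0.00535, 0.04, -0.07 and -0.02. The part of the cell mixture in the L2/H3 ratios was not tested.

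**Figure D4:**
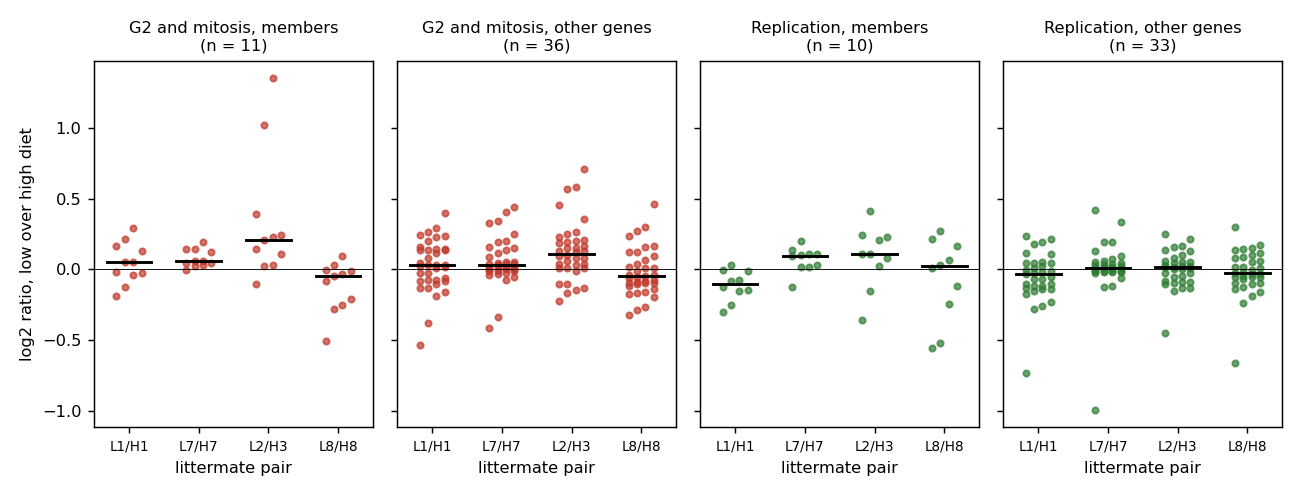
Log2 ratio of low over high diet (y axis) in each littermate pair (x axis), 1 point per gene and black bars at the median, for mitosis and replication genes of the set and for other genes of both processes. The median of the 11 mitosis genes of the set is highest in L2/H3 (0.21), and so is that of the 36 others (0.11). That of the 10 replication genes of the set is also highest in L2/H3 (0.11), close to L7/H7 (0.10). The median of the 33 other replication genes stays within 0.04 of 0 in every pair.

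Of the 5 measured inhibitors and growth arrest genes, Rb1 rose. Its level was 9.56, 9.80, 9.54 and 9.70 in L1, L7, L2 and L8, against 9.21, 9.47, 9.46 and 9.66 in H1, H7, H3 and H8. Each low-diet sample was above its littermate, but the diets overlapped, since H8 was above L1 and L2. The ratio was 0.20 ± 0.16 (SD, n = 4; 1.15-fold; limma adjusted p = 0.032). By pair it was 0.35, 0.33, 0.08 and 0.04, larger in the pairs with the low diet in Cy5. Leaving out 1 pair at a time gave 0.19 to 0.21, and the call was lost each time (limma adjusted p of 0.128, 0.091, 0.106 and 0.101 without L1/H1, L7/H7, L2/H3 and L8/H8). The dye term of Rb1 had an unadjusted limma p of 0.0048. The median of the 6 distal convoluted tubule markers ranked the pairs in the same order, with 1.23 in L1/H1 and 0.45 in L8/H8. The single markers differed in this. Egf and Slc12a3 were highest in L1/H1 (1.53 and 0.45). Pvalb, Calb1 and Klhl3 were highest in L7/H7 (2.56, 2.14 and 0.19), and Trpm6 in L2/H3 (1.31). The part of these markers in the Rb1 ratio was not tested.

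The Cip/Kip inhibitors did not move together. Cdkn1b, which encodes p27 and keeps differentiated cells out of the cycle, had levels of 9.90, 10.2, 10.2 and 10.1 in L1, L7, L2 and L8, against 9.92, 9.88, 9.92 and 9.91 in H1, H7, H3 and H8. It was level between littermates in L1/H1 and higher on the low diet in the other 3 pairs, with ratios of -0.03, 0.35, 0.32 and 0.17 (mean 0.20 ± 0.17; limma adjusted p = 0.199). Its dimmer probe was above background in 2 low-diet and 0 high-diet samples and adds no measure. Cdkn1a, which encodes the p53 target p21, was below 0 in 4 of 4 pairs, at -0.10, -0.02, -0.04 and -0.19 (mean -0.09 ± 0.07; limma adjusted p = 0.280). Cdkn1c, which encodes p57, had -0.02, -0.03, -0.15 and 0.18.

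Gadd45a, a stress-induced growth arrest gene, was singled out after its values were seen, for its spread between pairs. Its ratio was 0.18, -0.55, 0.14 and 0.61 in L1/H1, L7/H7, L2/H3 and L8/H8 (SD 0.48, at the 98.5th percentile of named genes). The median of the 5 inhibitors from the fit was 0.10, and it was -0.00945 without L1/H1 and -0.02 without L8/H8, so its sign rested on single pairs. The medians of replication, G1, mitosis and inhibitor genes, 0.00943, -0.03, 0.08 and 0.10, stand beside SDs of the 4 pair medians within a group of between 0.03 and 0.11.

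The wider pathway was described by 128 other cell cycle genes, of which 125 were measured. Of these, 10 passed the test (8.00%), 5 higher and 5 lower, close to the 7.82% of all named genes. The counts were 1 of 33 in replication, 4 of 36 in mitosis, 2 of 22 in G1 control and 3 of 34 in growth arrest. Without L1/H1, L7/H7, L2/H3 or L8/H8, the number that passed was 1, 2, 5 and 1. The share of all probes that passed fell too, from 5.82% to 0.211%, 1.11%, 2.19% and 0.571% in the same order. The 10 genes are given here by role.

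Btg1, an antiproliferative gene that is high in resting cells, had the largest rise. Its level was 12.6, 13.0, 12.6 and 12.5 in L1, L7, L2 and L8, against 11.2, 11.8, 12.2 and 12.1 in H1, H7, H3 and H8. All 4 low-diet samples lay above all high-diet samples, with ratios of 1.33, 1.18, 0.43 and 0.43 (mean 0.84 ± 0.48; 1.79-fold; limma adjusted p = 0.0083). The call held without each pair in turn, at 0.81 to 0.88, while a dimmer Btg1 probe averaged 0.04. In the authors' deposited table Btg1 (p = 0.0014) and Gmnn (p = 0.042) were the only 2 of the 10 genes under 0.05. There the others had p of 0.0808 for Smc4, 0.124 for E2f3, 0.439 for E2f5, 0.065 for Ddit4, 0.740 for Perp, 0.984 for Racgap1, 0.294 for Anln and 0.910 for Ccnf.

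Gmnn had the largest fall. It encodes geminin, which blocks the licensing factor Cdt1 and so keeps DNA from being replicated again within a cycle. Its level was 9.90, 9.93, 10.3 and 9.95 in L1, L7, L2 and L8, against 10.6, 10.9, 10.8 and 10.6 in H1, H7, H3 and H8. The diets did not overlap, and the ratios were -0.74, -0.99, -0.45 and -0.66 (mean -0.71 ± 0.23; 1.64-fold lower; limma adjusted p = 0.016). Gmnn had 1 probe, and its call was lost without L1/H1 or L8/H8 (limma adjusted p of 0.052 and 0.060).

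Among the transcription factors, E2f3 and E2f5 rose. E2f3, an activator of S-phase genes, had 0.54, 0.52, 0.28 and 0.55 in L1/H1, L7/H7, L2/H3 and L8/H8 (mean 0.47 ± 0.13; limma adjusted p = 0.021). Its dimmer probe averaged 0.14, with 0.54 in L8/H8 and between -0.06 and 0.08 in the other pairs. That probe was above background in 2 low-diet samples and 1 high-diet sample and adds little. E2f5, which works mainly as a repressor with the pocket proteins, had 0.34, 0.28, 0.21 and 0.31 (mean 0.29 ± 0.05; limma adjusted p = 0.022). E2f1, in the set above, averaged -0.05. Dimmer probes of the E2F partner Tfdp2 and of Lin9, a subunit of the complex that binds CHR elements, passed at 0.23 and 0.55 (limma adjusted p of 0.032 and 0.016). The brightest probes of these genes averaged -0.15 and 0.11 and did not pass, so for Tfdp2 the probes had opposite signs.

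Of the other mitosis genes, 2 rose and 2 fell. Smc4, a core subunit of condensin, had 0.40, 0.40, 0.35 and 0.46 in L1/H1, L7/H7, L2/H3 and L8/H8 (mean 0.41 ± 0.05; limma adjusted p = 0.015), the narrowest spread of the 10 genes. Racgap1, which organises the central spindle, averaged 0.24 ± 0.09, and its 2 dimmer probes averaged 0.05 and 0.08. Anln, which encodes the actin-binding protein anillin, averaged -0.29 ± 0.22 by its brightest probe, but 0.33 by its dimmer probe, which had 1.00 in L2/H3, so its direction is not settled. Ccnf, which encodes cyclin F, averaged -0.26 ± 0.13, and its dimmer probe -0.02.

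The growth arrest genes that fell were Ddit4 and Perp. Ddit4, a stress-induced inhibitor of mTORC1, had -0.39, -0.25, -0.42 and -0.56 in L1/H1, L7/H7, L2/H3 and L8/H8 (mean -0.41 ± 0.13; limma adjusted p = 0.020). Perp, a p53 target that encodes a membrane protein of cell junctions, averaged -0.28 ± 0.06 and was below 0 in 4 of 4 pairs. Ccng1, Mdm2 and Sesn1, p53 targets picked after their values were seen, averaged 0.20, 0.26 and 0.32, each above 0 in 4 of 4 pairs, but missed the threshold (limma adjusted p of 0.054, 0.086 and 0.096). Phlda3 and Cdkn1a, p53 targets as well, had the opposite sign, at -0.18 (limma adjusted p = 0.097) and -0.09. These picked genes do not stand for their list. Of the 34 measured other growth arrest genes, 18 had a ratio above 0 and 16 below, with a median of 0.00424.

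**Figure D5:**
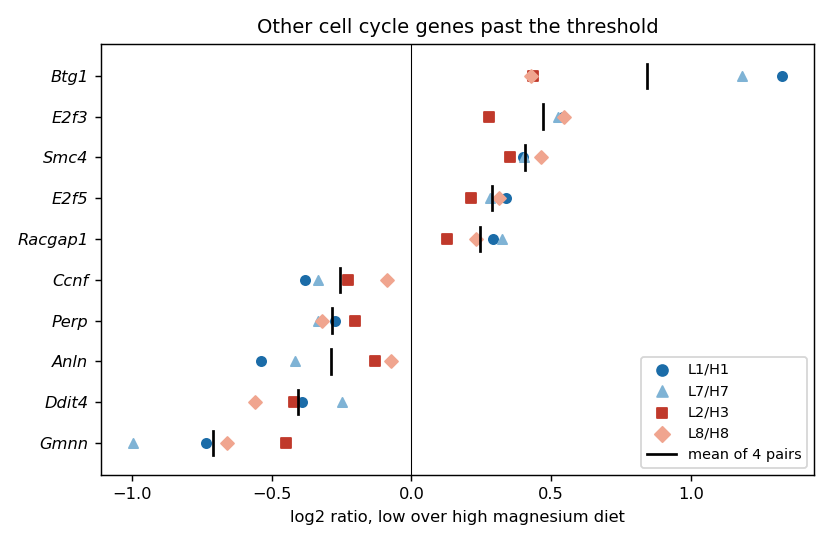
Log2 ratio of low over high diet (x axis) in the 4 littermate pairs for the 10 other cell cycle genes past the adjusted threshold, with black bars at the mean. Btg1 has the largest rise (mean 0.84) and Gmnn the largest fall (mean -0.71), and each gene has 1 sign in all 4 pairs.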

How the data were processed

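RNA of sorted tubules was measured on 4 two-colour arrays, 8 samples in 4 littermate pairs. The deposited scans hold linear intensities, namely the mean and median pixel signal and the local background of every spot in each channel, per the file headers. Channel 1 was taken as Cy5, as the labels list it first. The authors also deposited their processed log2 ratios per spot and a maanova table, so named in the file headers, with a mean log2 ratio of high over low diet and a p-value for each probe. In the processed values the scale (log2, channel 1 over channel 2) was found by comparison with the scans (Pearson r between 0.715 and 0.837 over the brighter probes). The medians were 0.00408, -0.00346, -0.00377 and 0.00466 for L1/H1, L7/H7, L2/H3 and L8/H8, and neither their normalization nor whether the authors adjusted their p-values is stated in the sources used here.

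From the scans, mean signals were corrected by normexp with an offset of 50, normalized by loess within each array with 5791 of 45220 spots, the controls, at weight 0, and given as low over high diet. The model had a diet and a dye term (limma 3.58.1, R 4.3.3). It was moderated by eBayes, with 2 residual and 2.68 prior degrees of freedom, with 2-sided p-values adjusted (Benjamini-Hochberg) over 39429 probes at 0.05. SDs are over the 4 ratios and include the dye effect that the fit removes. Levels are per channel after loess and Aquantile, and are not compared between genes. Symbols came from the platform annotation (32431 probes with 1 symbol, 6998 with none here), of which 2622 were updated through RefSeq. Motifs were searched with Python 3.11.15 in RefSeq promoters. The fit was tested on simulated data.

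The genes, their roles and the other lists were chosen with earlier results of these data known. Values per pair are given for genes past the threshold and for the measured genes with the smallest p up to 10, and for up to 10 other cell cycle genes past the threshold. For Racgap1, Anln, Ccnf and Perp these values are only drawn, in the figure of the 10 genes, and the text gives means and SDs. Other genes of the set are described by role, most with their values per pair, and were not chosen by that rule. Alternatives changed the background correction, signal, normalization, source of the ratios, dye term, filter and probe choice, and left out each pair. The number of arrays limits the precision.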

Additional observations from a re-analysis of the deposited data

Results flagged for a closer look

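In 53 groups of 4 values, the gap of the most distant value was set against Dixon's 95% critical value, which chance passes in about 5% of groups. It was passed in 3 of them. The Ccnb2 ratio of low over high diet was -0.51 in L8/H8, far from the other 3 pairs at 0.12 to 0.24. The Mcm7 level was 7.72 in low-diet sample L7, above the other low-diet samples at 7.58 to 7.60. The E2f3 ratio was 0.28 in L2/H3, below the other pairs at 0.52 to 0.55.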

How the results depend on the processing

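With 4 pairs and ratios of dim probes drawn towards 0, small changes could be missed, and the calls were sensitive to the settings. Rb1 and Mcm7 passed, 1 higher and 1 lower, under 6 alternatives: no background correction, median pixel signal, median centring, the dimmest 50% of probes left out, the mean of a gene's probes, and the authors' processed ratios. The last gave 2 higher and 2 lower, with Mcm3 and Cdk4 added. Plain subtraction of the background, scale normalization between arrays and a fit with no dye term gave 0 higher and 0 lower in the set. Over all probes, scale normalization gave 0 calls, plain subtraction 279 and no dye term 824, against 2296 in the reported fit, and the share of higher calls was 73.1% with plain subtraction and 69.3% with no dye term, against 59.7%. Without 1 pair the set had 0 to 0 higher and 0 to 1 lower calls, where 0.211% to 2.19% of all probes passed, against 5.82% with all pairs.

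Of the other cell cycle genes, 5 rose and 5 fell as reported. Plain subtraction gave 1 higher and 0 lower, scale normalization 0 and 0, no dye term 3 and 3, no background correction 10 and 8, the authors' ratios 10 higher, the mean of a gene's probes 3 lower, and leaving out a pair 1 to 3 higher and 0 to 2 lower. Anln turned to 0.018 with the mean of its probes. The median ratio of the G1 genes was -0.067 with plain subtraction and 0.00514 with median centring, against -0.03; that of mitosis genes was 0.29 with plain subtraction, against 0.08. The inhibitor median was -0.021 with scale normalization and -0.024 in the pairs with the low diet in Cy5 alone, against 0.10, and -0.018 to 0.17 without 1 pair. The medians of the replication, G1 and mitosis genes without 1 pair ran from -0.04 to 0.07, -0.05 to -0.01 and -0.02 to 0.12. The cause of these changes was not tested. The reported fit is itself paired, since each ratio is a difference within 1 littermate pair.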
